A study of Mus musculus with 16 samples.

Results

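The Trim43 family of the mouse was measured here as 3 genes, Trim43a, Trim43b and Trim43c, in liver tumours and non-tumour liver of transgenic mice. Each gene had 1 row among the 41345 transcript rows of an Affymetrix mouse array, so the family holds 3 of the 22180 genes with a row of their own. Rows were taken where the probe annotation gives one of these symbols and no other. The family was chosen from measured values of these same arrays, namely the tumour and genotype pattern of Trim43c, so the levels of its members are a description and carry no test.

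Proteins of the TRIM family combine a RING finger, a B-box and a coiled coil, and many of them act as E3 ubiquitin ligases, which mark other proteins for degradation. Trim43 genes are known as genes of the embryo before implantation and lie near each other on mouse chromosome 9. In human cells TRIM43 is a target of the embryonic transcription factor DUX4, and it restricts herpesviruses by removing pericentrin, a scaffold protein of the centrosome, which alters the nuclear lamina. Adult liver is not a tissue for which the family is known.

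Tumour and non-tumour liver came from 4 MYC/REG3A mice (genotype label MYC+/+, REG3A+/+) and 4 MYC mice (MYC+/+, REG3A-/-), all in the C57BL/6J background and 18 months old, which gave 4 groups of 4 arrays: MYC/REG3A tumours, MYC tumours, MYC/REG3A non-tumour liver and MYC non-tumour liver. In all 4 groups the c-MYC oncogene is expressed in the liver under woodchuck hepatitis virus control sequences, and no mouse without that transgene is among the samples. REG3A is a secreted C-type lectin; the promoter of its transgene is not given in the sources used here. The labels' protocols describe matings of heterozygous animals, and whether a plus sign marks homozygous animals or carriers is not given in the sources used here. Both tissues of a mouse came from the same liver, and the mice of a genotype are separate animals.

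The values are log2 expression values made by the authors with RMA, which gives all arrays nearly the same distribution. Each level below is the log2 value minus the median of its array over all rows, and these medians lay between 4.896 and 4.973. Genes were tested, 13555 in all, if their value was above that median on 4 or more arrays out of 16. A gene is said to have risen or fallen where limma's 2-sided test gave an adjusted p (Benjamini-Hochberg, over all tested genes) below 0.05. Its log2 differences are of the deposited values, not centred on the array median, and their standard error (SE) comes from a residual spread pooled over the groups. The tissue is bulk liver, so fewer cells of a type and less RNA per cell cannot be told apart. Albumin (Alb), the main secreted protein of hepatocytes, lay 8.54, 8.46, 8.61 and 8.57 above the array median on average in MYC/REG3A tumours, MYC tumours, MYC/REG3A non-tumour liver and MYC non-tumour liver. The row of mouse Reg3a lay below the lower quartile of its array on all arrays of all groups, and whether its probes read the transgene was not tested. The row of mouse Myc averaged 2.91 in MYC/REG3A tumours and 2.18 in MYC tumours, against 3.03 in MYC/REG3A non-tumour liver and 2.73 in MYC non-tumour liver; it fell in MYC tumours by 0.59 (SE 0.127, adjusted p = 0.00673). Whether the row of Myc reads the transgene, the mouse's own gene or both was not tested. MYC/REG3A mouse 2 stood apart in this row, at 4.45 in its tumour and 4.29 in its liver, and without it the MYC/REG3A means were 2.40 in tumours and 2.61 in non-tumour liver.

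Trim43c was high in the tumours of MYC mice and near or below the array median in the other groups. Its level in MYC/REG3A tumours was 0.41, -0.11, -0.10 and -0.32 in mice 1, 2, 3 and 4. In MYC tumours it was 1.87, 2.05, 1.14 and 1.97. All 4 MYC tumours lay above all 4 MYC/REG3A tumours, and among MYC/REG3A tumours only that of mouse 1 exceeded the array median.

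In non-tumour liver the genotypes overlapped. Trim43c read -0.25, -0.20, -0.40 and -0.41 in MYC/REG3A non-tumour liver, against -0.06, -0.26, -0.75 and -0.59 in MYC non-tumour liver. Their means were -0.31 ± 0.108 in MYC/REG3A mice and -0.41 ± 0.312 in MYC mice (SD, n = 4 each), and the means of the tumours were -0.03 ± 0.310 in MYC/REG3A mice and 1.76 ± 0.417 in MYC mice. On these means the level in tumours was 1.79 lower on the log2 scale in MYC/REG3A mice than in MYC mice, and that in non-tumour liver 0.10 higher. The gene reached the count of arrays needed to be tested through 5 arrays, the 4 MYC tumours and the tumour of MYC/REG3A mouse 1. Its place in the test thus rested on the group in which it was high.

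**Figure D1:**
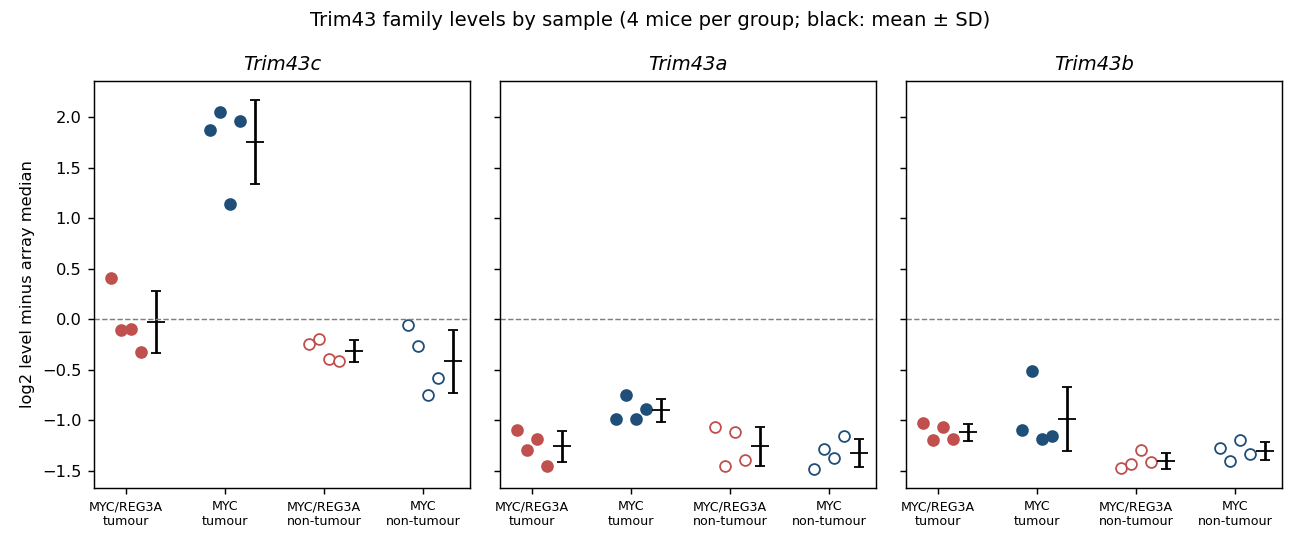
Levels of Trim43c, Trim43a and Trim43b (y axis, log2 value minus the array median; x axis, the 4 groups), with 1 point per array and the mean ± SD of 4 mice in black. Trim43c in MYC tumours, between 1.14 and 2.05, stands above every other array, while Trim43a and Trim43b stay below the array median (dashed line) throughout.

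Set against non-tumour liver of the same animal, Trim43c differed by 0.66, 0.09, 0.30 and 0.09 in MYC/REG3A mice 1 to 4. In MYC mice the differences were 1.93, 2.31, 1.89 and 2.55. All 8 differences were above 0 and the genotypes did not overlap. Trim43c was chosen for this pattern, and the share of all genes without overlap was not counted. The mean was 0.28 ± 0.268 in MYC/REG3A mice, a ratio of 1.22, and 2.17 ± 0.316 in MYC mice, a ratio of 4.51 (SD, n = 4 each). Ranked among the 13555 tested genes of the same mouse, with 1 the largest rise, the difference of Trim43c stood at 1843, 5250, 3196 and 5243 in MYC/REG3A mice, against 129, 81, 115 and 46 in MYC mice. The genotypes differed by -1.89 (MYC/REG3A minus MYC) in this tumour difference.

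The comparison from which the family was chosen gave few calls. The difference of tumour changes between genotypes called 1 of 13555 genes (0.00738%), and that gene was Trim43c. The genotype difference in tumours called 3 genes (0.0221%): Trim43c, Lpcat4 and Gas1. The genotype difference in non-tumour liver called 0 genes with limma, and 739 had an unadjusted p below 0.05. Since the choice used these contrasts, the calls of Trim43c support nothing by themselves. The single call in the difference of tumour changes was absent, with 0 genes called, in the fit without mice as blocks, in the fit without a filter on low values and when any one MYC mouse, MYC/REG3A mouse 2 or MYC/REG3A mouse 4 was left out; without MYC/REG3A mouse 1 there were 2 calls.

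Tumours also differed in how far they departed from their own liver over all genes. The SD of the tumour difference over the tested genes was 0.679, 0.336, 0.657 and 0.429 in MYC/REG3A mice, against 0.729, 0.682, 0.624 and 0.704 in MYC mice. MYC/REG3A mice 2 and 4 had the smallest departures and the smallest differences of Trim43c. In MYC/REG3A mice 1 and 3 the departure was within the range of MYC mice, and Trim43c differed by 0.66 and 0.30. The part of the departure in the difference of Trim43c was not tested. Without mice 2 and 4, a choice made after the data were seen, 0 genes were called in the difference of tumour changes and 0 in the genotype difference in tumours.

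**Figure D2:**
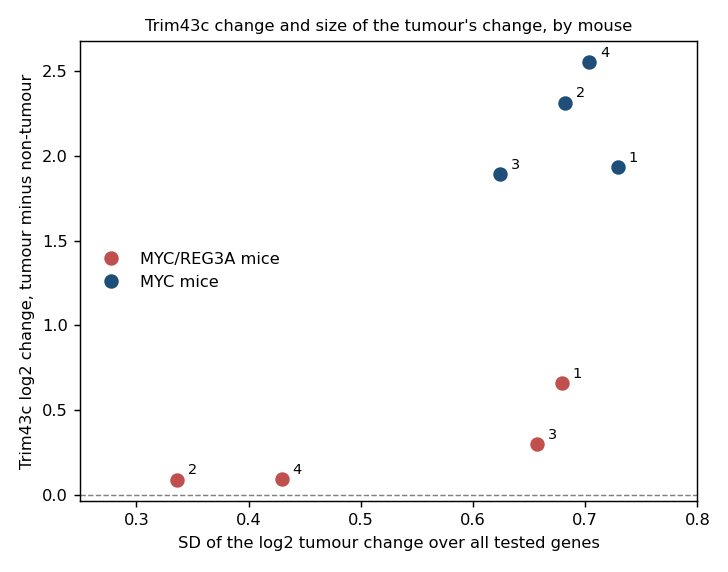
Trim43c in tumour minus non-tumour liver of each mouse (y axis, log2) against the SD of that difference over all 13555 tested genes (x axis, log2), with mouse numbers beside the points. MYC mice lie between 1.89 and 2.55 on the y axis and MYC/REG3A mice at or below 0.66, including mice 1 and 3, whose SD of 0.679 and 0.657 is close to that of MYC mice.

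Markers of other cells moved in the tumours as well. The 4 Kupffer cell markers (Clec4f, Timd4, Cd5l and Vsig4), averaged, differed by -2.65, -0.93, -2.39 and -0.82 in MYC/REG3A mice, against -1.66, -1.74, -1.19 and -1.88 in MYC mice, and all 4 fell in either genotype. Over all tested genes 7.58% rose and 4.88% fell in MYC/REG3A tumours (12.5% together), and 17.4% rose and 15.8% fell in MYC tumours (33.2% together). The 3 B and plasma cell markers with a row (Cd79a, Jchain and Ighm), averaged, differed by -2.31, -0.82, -3.75 and -0.47 in MYC/REG3A mice, against -3.02, -2.72, -1.50 and -1.0 in MYC mice, and 2 fell in MYC/REG3A mice and 3 in MYC mice. Of the 4 sinusoidal endothelial markers 2 fell in MYC/REG3A mice (Stab2 and Clec4g) and 3 in MYC mice (also Stab1). Of the 4 stellate cell markers 2 fell in MYC/REG3A mice (Lrat and Reln) and 3 in MYC mice (also Des). Of the 4 bile duct markers 0 fell in MYC/REG3A mice and 2 in MYC mice (Krt19 and Epcam), and the 2 tested T cell markers did not pass the test. None of these markers rose. The 5 hepatocyte markers, averaged within each mouse, differed by -0.50 to -0.04 in MYC/REG3A mice and by -0.35 to -0.10 in MYC mice. Of these 5 markers 1 fell in MYC/REG3A mice and 2 in MYC mice. The part of these markers in the level of Trim43c was not tested. The 6 oocyte and germ cell markers (Zp3, Gdf9, Ddx4, Dazl, Zar1 and Nlrp5) had a mean level between -1.02 and -0.89 in MYC/REG3A tumours and between -1.04 and -0.82 in MYC tumours, against -1.17 to -1.05 in MYC/REG3A non-tumour liver and -1.17 to -1.06 in MYC non-tumour liver. The 5 pluripotent cell markers (Pou5f1, Nanog, Sox2, Dppa3 and Zfp42) averaged between -0.81 and -0.71 in MYC/REG3A tumours and between -0.86 and -0.61 in MYC tumours. Both marker means thus lay below the array median in every tumour.

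Trim43a and Trim43b stayed below the array median on all 16 arrays and were not tested. Trim43a read -1.10, -1.30, -1.19 and -1.46 in MYC/REG3A tumours, against -1.07, -1.45, -1.12 and -1.39 in MYC/REG3A non-tumour liver. It read -0.99, -0.75, -0.99 and -0.89 in MYC tumours, against -1.49, -1.28, -1.38 and -1.16 in MYC non-tumour liver. The tumour difference of Trim43a was -0.03, 0.15, -0.07 and -0.06 in MYC/REG3A mice, against 0.50, 0.54, 0.39 and 0.26 in MYC mice. The mean was -0.0018 ± 0.103 in MYC/REG3A mice and 0.42 ± 0.122 in MYC mice (SD, n = 4 each). These differences did not overlap between genotypes. They come from a row near the lower quartile of its arrays, and the share of all genes without overlap was not counted. Its MYC tumours were the 1 group in which no array lay below the lower quartile of all rows; 3 of the 4 arrays did so in MYC/REG3A tumours, 2 in MYC/REG3A non-tumour liver and 3 in MYC non-tumour liver.

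Trim43b showed no such separation. It read -1.03, -1.19, -1.07 and -1.19 in MYC/REG3A tumours, against -1.47, -1.44, -1.29 and -1.41 in MYC/REG3A non-tumour liver. It read -1.10, -0.51, -1.18 and -1.16 in MYC tumours, against -1.27, -1.41, -1.20 and -1.33 in MYC non-tumour liver. The MYC tumour of mouse 2 stood apart from the other 3. The tumour difference of Trim43b was 0.44, 0.24, 0.23 and 0.22 in MYC/REG3A mice, against 0.18, 0.90, 0.02 and 0.17 in MYC mice, all above 0 and overlapping, with means of 0.28 ± 0.107 in MYC/REG3A mice and 0.32 ± 0.397 in MYC mice (SD, n = 4 each). Probe sequences were not analysed here, so signal that near-identical copies of the family share cannot be assigned to 1 of them, and levels are not compared between rows.

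Genes around the family were examined next, because the family lies in a cluster with other genes. In the order of the RefSeq annotation of chromosome 9 (assembly GRCm38.p6, used for names and order), the genes with a row run Nt5e, Snx14, Syncrip, Snhg5, Zfp949, Trim43a, 9430037G07Rik, Mthfsl, Trim43c, 9330159M07Rik, Bcl2a1a, Trim43b, Mthfs, Minar1, Tmed3, Ankrd34c and Mir184. The 5 genes before and the 5 after the cluster were a list of their own, and the 4 genes inside it were added after their values were seen. 9430037G07Rik and 9330159M07Rik are annotated as long non-coding RNAs, each with 1 small nucleolar RNA gene inside its bounds, and the interval of 9330159M07Rik overlaps that of Trim43c. RefSeq gives mU50hg-a as another name of 9330159M07Rik, and Snhg5 is itself a small nucleolar RNA host gene.

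The non-coding RNA that overlaps Trim43c was higher in MYC tumours. 9330159M07Rik read 4.89, 2.97, 3.13 and 3.85 in MYC/REG3A tumours, against 1.80, 2.55, 2.67 and 2.87 in MYC/REG3A non-tumour liver. It read 4.86, 5.85, 4.41 and 5.88 in MYC tumours, against 2.21, 2.05, 2.22 and 2.15 in MYC non-tumour liver. All 4 MYC tumours lay above all MYC non-tumour arrays, and MYC/REG3A tumour 1 lay among the MYC tumours. In limma the difference was 1.21 (SE 0.419, adjusted p = 0.0849) in MYC/REG3A mice, higher in 4 of 4, and a rise of 3.05 (SE 0.419, adjusted p = 0.00121) in MYC mice, higher in 4 of 4. The difference of the genotypes was -1.84 (SE 0.593, adjusted p = 0.873) and did not pass the test.

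The other non-coding RNA of the cluster was also higher in MYC tumours. 9430037G07Rik read 3.70, 1.37, 1.61 and 2.57 in MYC/REG3A tumours, against 0.63, 1.09, 0.82 and 0.94 in MYC/REG3A non-tumour liver. It read 3.0, 4.33, 2.25 and 4.67 in MYC tumours, against 0.30, 0.78, 0.41 and 0.53 in MYC non-tumour liver. The tumours of both genotypes overlapped and lay above non-tumour liver of either. In limma the difference was 1.41 (SE 0.444, adjusted p = 0.064) in MYC/REG3A mice and a rise of 3.01 (SE 0.444, adjusted p = 0.0015) in MYC mice, and their difference of -1.60 had an adjusted p of 0.873.

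Among the 8 mice the gap between these non-coding RNAs and Trim43c was widest in MYC/REG3A mouse 1. Its tumour exceeded its liver by 3.09 for 9330159M07Rik and by 3.07 for 9430037G07Rik, more than in MYC mouse 3, where they differed by 2.19 and 1.84. Trim43c differed by 0.66 in MYC/REG3A mouse 1 and by 1.89 in MYC mouse 3. A signal of the overlapping non-coding RNA in the row of Trim43c was not tested, since the probes were not analysed here.

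**Figure D3:**
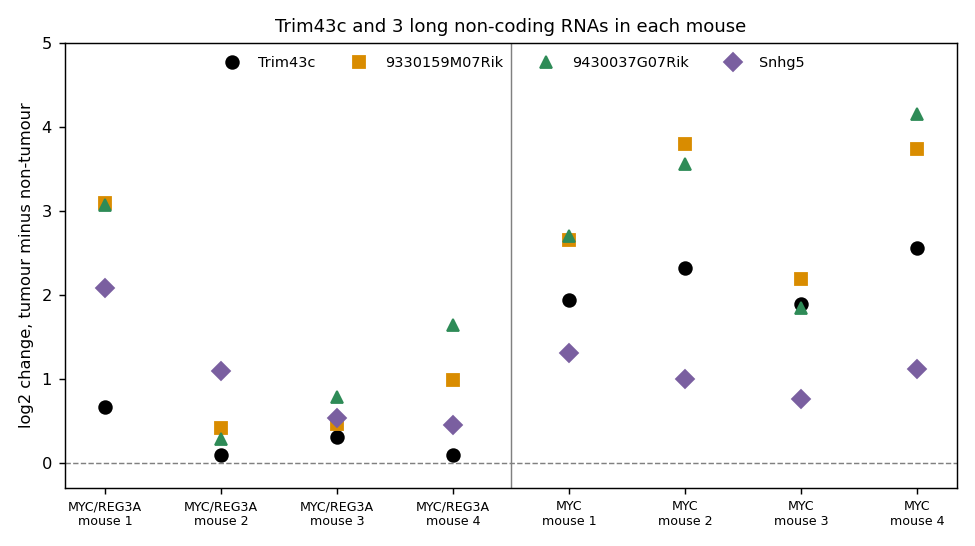
Tumour minus non-tumour difference (y axis, log2) of Trim43c, 9330159M07Rik, 9430037G07Rik and Snhg5 in each of the 8 mice (x axis). In MYC/REG3A mouse 1 both cluster RNAs lie near 3.1 while Trim43c lies at 0.66, and in MYC mouse 3 Trim43c at 1.89 lies close to both.

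Of the 10 genes flanking the cluster, 7 were tested. In MYC/REG3A mice 1 rose and 0 fell, and in MYC mice 3 rose and 0 fell, beside 7.58% of all tested genes that rose in MYC/REG3A mice and 17.4% in MYC mice. The median difference of the 7 genes was -0.07 in MYC/REG3A mice and 0.25 in MYC mice, beside -0.02 in MYC/REG3A mice and -0.03 in MYC mice over all tested genes. Snhg5 rose in both, by 1.01 (SE 0.231, adjusted p = 0.0244) in MYC/REG3A mice and by 1.0 (SE 0.231, adjusted p = 0.00948) in MYC mice, higher in 4 of 4 mice each. Its rise in MYC/REG3A mice lost its call without mouse 1, 2 or 3, with adjusted p between 0.0544 and 0.073.

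The other calls next to the cluster were found in MYC mice. Mthfs, an enzyme of folate metabolism, differed by -0.26 (adjusted p = 0.253) in MYC/REG3A mice and rose by 0.48 (SE 0.144, adjusted p = 0.029) in MYC mice. Syncrip, an RNA-binding protein, differed by 0.32 (adjusted p = 0.183) in MYC/REG3A mice and rose by 0.48 (SE 0.15, adjusted p = 0.0347) in MYC mice. Mthfs lost its call without MYC mouse 1, 3 or 4 and Syncrip without MYC mouse 1 or 4, at adjusted p between 0.0689 and 0.144. Nt5e (an ectonucleotidase), Snx14 (a sorting nexin), Zfp949 (a zinc finger protein) and Tmed3 (a protein of vesicle traffic) did not pass the test in either genotype. The untested Minar1, Ankrd34c and Mir184 differed on average by 0.0046, 0.0056 and 0.092 in MYC/REG3A mice, against 0.16, 0.14 and 0.15 in MYC mice. Inside the cluster, Mthfsl, which resembles Mthfs in name and annotation, differed by 0.24 (SE 0.149, adjusted p = 0.323) in MYC/REG3A mice and rose by 0.74 (SE 0.149, adjusted p = 0.00521) in MYC mice. Bcl2a1a, a BCL2-related survival gene, differed by 0.03 (adjusted p = 0.898) in MYC/REG3A mice and by 0.15 (adjusted p = 0.413) in MYC mice.

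**Figure D4:**
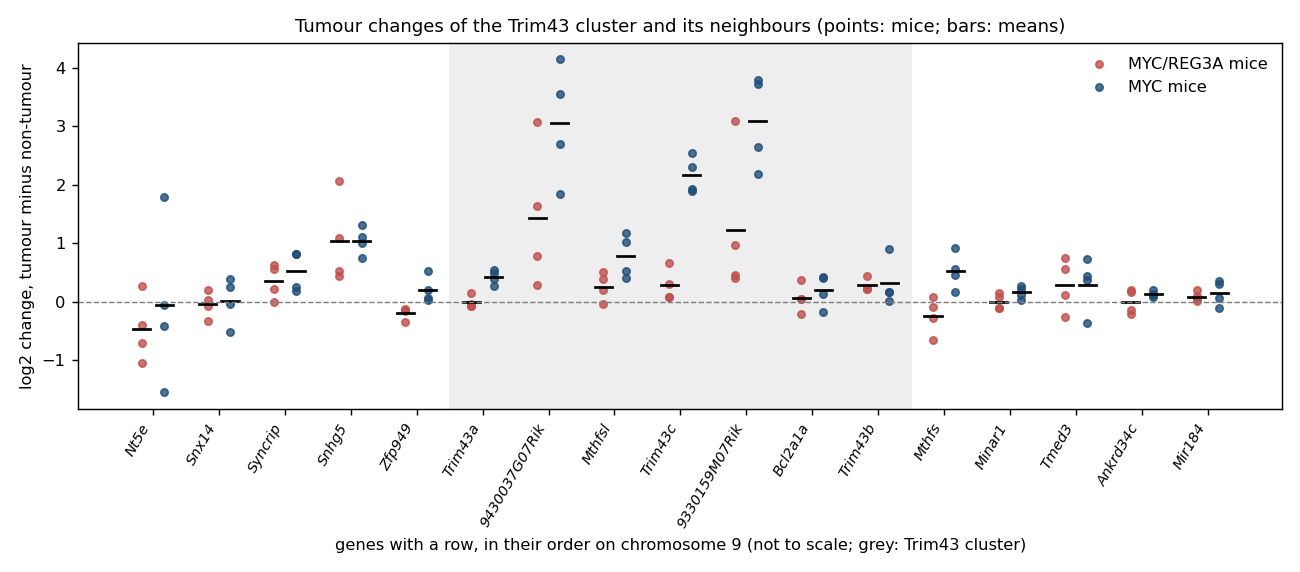
Tumour minus non-tumour difference (y axis, log2) of the 17 genes with a row in and around the Trim43 cluster, in their order on chromosome 9 (x axis, not to scale), with 1 point per mouse and bars for the means of 4 mice. The differences of 9430037G07Rik, Trim43c and 9330159M07Rik in MYC mice, with means of 3.06, 2.17 and 3.09, exceed on average those of the flanking genes, the highest of which is Snhg5 with means of 1.03 in MYC/REG3A mice and 1.04 in MYC mice.

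The rest of chromosome 9 was measured on the same arrays. The median tumour difference of the 759 tested genes of chromosome 9 was 0.058, 0.080, 0.16 and 0.0012 in MYC/REG3A mice, against 0.24, 0.064, 0.11 and 0.19 in MYC mice. Over all tested genes it was 0.045, 0.016, -0.011 and 0.0039 in MYC/REG3A mice, against 0.021, 0.032, 0.053 and 0.021 in MYC mice. The median of chromosome 9 lay above that of all genes in 7 of the 8 mice. Its part in the difference of Trim43c was not tested.

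Promoter windows from RefSeq (assembly GRCm38.p6, 250 bases before to 50 bases after the annotated start) are shown for the member and the non-coding RNAs on which these results turn. Capitals mark a match on either strand to an E-box, the site bound by MYC and its partner MAX, searched as CACGTG, or to a TATA box, searched as TATAAA. RefSeq's table gave a window for Trim43a; Trim43b and Trim43c are named only.
Trim43a, chr9:88580641-88580940, plus strand: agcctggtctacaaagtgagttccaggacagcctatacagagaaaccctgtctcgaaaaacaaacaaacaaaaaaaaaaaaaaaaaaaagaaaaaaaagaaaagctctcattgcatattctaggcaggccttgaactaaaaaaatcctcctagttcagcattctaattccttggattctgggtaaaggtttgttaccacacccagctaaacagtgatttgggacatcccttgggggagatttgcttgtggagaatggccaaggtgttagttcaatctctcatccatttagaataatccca
9330159M07Rik, chr9:88858821-88859120, minus strand: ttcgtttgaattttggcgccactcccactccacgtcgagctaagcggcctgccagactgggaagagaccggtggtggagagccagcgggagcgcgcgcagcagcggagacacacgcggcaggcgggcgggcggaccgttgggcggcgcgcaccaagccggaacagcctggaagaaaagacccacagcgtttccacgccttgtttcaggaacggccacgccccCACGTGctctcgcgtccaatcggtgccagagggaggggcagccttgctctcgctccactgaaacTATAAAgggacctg
9430037G07Rik, chr9:88599194-88599493, minus strand: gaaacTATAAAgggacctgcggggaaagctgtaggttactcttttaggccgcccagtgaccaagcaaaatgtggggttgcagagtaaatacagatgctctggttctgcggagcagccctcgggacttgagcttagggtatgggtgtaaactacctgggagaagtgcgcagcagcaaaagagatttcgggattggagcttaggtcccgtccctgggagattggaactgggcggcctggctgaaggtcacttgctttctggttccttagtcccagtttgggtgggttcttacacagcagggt
Snhg5, chr9:88522848-88523147, minus strand: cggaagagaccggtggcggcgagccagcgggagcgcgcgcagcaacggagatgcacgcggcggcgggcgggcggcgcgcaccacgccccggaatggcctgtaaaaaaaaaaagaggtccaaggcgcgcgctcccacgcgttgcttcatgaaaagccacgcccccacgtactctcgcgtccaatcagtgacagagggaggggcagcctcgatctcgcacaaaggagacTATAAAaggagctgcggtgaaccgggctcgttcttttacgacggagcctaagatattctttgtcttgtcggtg
The printed window of 9330159M07Rik holds an E-box starting 28 bases before the annotated start, and the windows of 9430037G07Rik and Snhg5 hold none. Its TATA box starts 36 bases after that start, while those of 9430037G07Rik and Snhg5 start 245 and 23 bases before theirs. RefSeq gives 9330159M07Rik another start too, with the E-box 97 bases and the TATA box 33 bases before it. Among all 32851 windows of the table, 7.15% hold the E-box and 13.6% the TATA box. The windows of 9330159M07Rik and Snhg5 are alike over most of their length, with 195 of 229 aligned bases identical (85.2%). The first 19 bases of the 9430037G07Rik window are identical to the last 19 of the 9330159M07Rik window. A stretch matching the one that holds the E-box in 9330159M07Rik would thus lie outside the 9430037G07Rik window and was not searched. The site of the mouse 2-cell factor DUX, searched as TGATTNAATCA on both strands, is in 0.0335% of all windows and in none of these 4. A match or its absence describes the letters of these windows and says nothing of binding.

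Genes that the Trim43 family shares its embryonic timing with were then examined. The list of 48 genes known from the 2-cell stage of the mouse embryo had 40 with a row, of which 6 were tested. In MYC/REG3A mice 0 rose and 1 fell, and in MYC mice 0 rose and 3 fell, with a median of -0.17 in MYC/REG3A mice and -0.39 in MYC mice. Over all tested genes 4.88% fell in MYC/REG3A mice and 15.8% in MYC mice, and with 6 genes tested the list's counts were small. Zscan4a, a zinc finger gene of the 2-cell stage, differed by -0.31 (SE 0.177, adjusted p = 0.273) in MYC/REG3A mice and fell by 0.65 (SE 0.177, adjusted p = 0.0202) in MYC mice, lower in 4 of 4, a call lost without MYC mouse 2 or 3. Sp110, an interferon-induced nuclear body gene, fell by 0.61 (adjusted p = 0.045) in MYC/REG3A mice and by 0.83 (adjusted p = 0.00576) in MYC mice, and Arg2, a mitochondrial arginase, fell by 0.56 (adjusted p = 0.0101) in MYC mice. The call of Sp110 in MYC/REG3A mice was lost without any one of the 4 mice. Sp110 and Arg2 are also genes of adult tissues.

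The other 34 rows of the 2-cell list lay too low for the test. Their mean differences spanned -0.13 (Khdc1c) to 0.25 (Tmem92) in MYC/REG3A mice and -0.29 (Usp17la) to 0.23 (Obox5) in MYC mice. The factor DUX, whose row carries the symbol Duxf3, lay below the lower quartile on all 16 arrays, with a mean level of -2.08 in MYC/REG3A tumours and -2.07 in MYC tumours, against -1.98 in MYC/REG3A non-tumour liver and -2.09 in MYC non-tumour liver. Of its known 2-cell targets, Zscan4c averaged -0.21 in MYC/REG3A tumours and -0.27 in MYC tumours, against -0.35 in MYC/REG3A non-tumour liver and -0.27 in MYC non-tumour liver. Zscan4d, Zfp352 and Usp17la averaged below the array median in all 4 groups, with tumour differences of -0.06, -0.05 and 0.083 in MYC/REG3A mice, against -0.01, -0.10 and -0.29 in MYC mice. The tested Zscan4a averaged above it, at 0.71 in MYC/REG3A tumours and 0.29 in MYC tumours, against 0.99 and 0.89 in their non-tumour liver. Of the 40 rows, 4 averaged above the array median in the tumours of each genotype and 5 in non-tumour liver of each. The highest mean tumour difference among the 40 rows was 0.25 in MYC/REG3A mice and 0.23 in MYC mice, beside 0.28 in MYC/REG3A mice and 2.17 in MYC mice for Trim43c.

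Genes known to keep the 2-cell programme silent in mouse embryonic stem cells, among them chromatin modifiers and repressors, made up a list of 22, of which 21 were tested. In MYC/REG3A mice 4 rose and 0 fell, and in MYC mice 10 rose and 3 fell, with a median of 0.21 in MYC/REG3A mice and 0.30 in MYC mice. This is 19.0% of the list called in MYC/REG3A mice and 61.9% in MYC mice, beside 12.5% in MYC/REG3A mice and 33.2% in MYC mice over all tested genes. Nucleolin (Ncl), a nucleolar protein, rose by 1.20 (SE 0.224, adjusted p = 0.013) in MYC/REG3A mice and by 1.76 (SE 0.224, adjusted p = 0.000956) in MYC mice, higher in 4 of 4 mice each. Max, the partner of MYC, rose by 0.68 (adjusted p = 0.00713) in MYC/REG3A mice and by 0.70 (adjusted p = 0.00151) in MYC mice, and Pcgf6, a Polycomb subunit, rose by 0.52 (adjusted p = 0.0154) in MYC/REG3A mice and by 0.79 (adjusted p = 0.000998) in MYC mice. Dnmt1, the maintenance DNA methyltransferase, rose by 0.56 (adjusted p = 0.0232) in MYC/REG3A mice and by 0.54 (adjusted p = 0.0101) in MYC mice. The calls of Ncl, Pcgf6 and Dnmt1 in MYC/REG3A mice were lost without mouse 1 or 3, and that of Dnmt1 in MYC mice without mouse 4, at adjusted p between 0.052 and 0.113.

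Further repressors passed the test in MYC mice. Chaf1b, a subunit of the chromatin assembly factor, rose there by 0.87 (adjusted p = 0.0067), Setdb1, a histone methyltransferase, by 0.74 (adjusted p = 0.00529) and L3mbtl2, a Polycomb-related gene, by 0.73 (adjusted p = 0.00906). Zmym2, Ctcf and Atrx fell in MYC mice by 0.63, 0.49 and 0.43, Atrx with a call that was lost without MYC mouse 1 or 3. Trim28, which recruits Setdb1 and belongs to the Trim family itself, differed by 0.29 (SE 0.131, adjusted p = 0.169) in MYC/REG3A mice and by 0.35 (SE 0.131, adjusted p = 0.0646) in MYC mice, higher in 4 of 4 mice each. No gene of the list passed the test of the difference between genotypes, where 0 of the 21 had an unadjusted p below 0.05, beside 756 of all 13555 tested genes.

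The list of other Trim genes was drawn from the genes with a row, 61 in all, of which 39 were tested. In MYC/REG3A mice 1 rose and 1 fell, and in MYC mice 2 rose and 6 fell, with a median of -0.08 in MYC/REG3A mice and -0.05 in MYC mice. Calls made up 5.13% of the list in MYC/REG3A mice and 20.5% in MYC mice, both below the 12.5% in MYC/REG3A mice and 33.2% in MYC mice of all tested genes. Trim59 rose in both genotypes. Its level was between 1.36 and 2.81 in MYC/REG3A tumours and between 1.74 and 2.32 in MYC tumours, against 0.40 to 0.82 in MYC/REG3A non-tumour liver and 0.48 to 1.21 in MYC non-tumour liver. The rise was 1.29 (SE 0.25, adjusted p = 0.0149) in MYC/REG3A mice and 1.21 (SE 0.25, adjusted p = 0.00573) in MYC mice, higher in 4 of 4 mice each. The difference of its changes between genotypes was 0.07 (SE 0.353, adjusted p = 0.985).

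The remaining Trim calls were smaller. Trim21, the cytosolic antibody receptor, fell by 0.60 (adjusted p = 0.0305) in MYC/REG3A mice and by 0.59 (adjusted p = 0.0133) in MYC mice. Trim24, a chromatin reader, fell by 0.76 (adjusted p = 0.00586) in MYC mice, and Trim34a, Trim35, Trim56 and Trim3 fell there by 0.66, 0.59, 0.43 and 0.38. Trim2 rose by 0.66 (adjusted p = 0.02) in MYC mice. The calls of Trim21 were lost without MYC/REG3A mouse 1, 3 or 4 and without MYC mouse 4, those of Trim3 and Trim56 without MYC mouse 1, 3 or 4 and that of Trim2 without MYC mouse 1, 2 or 4, at adjusted p between 0.0526 and 0.138. The 22 Trim genes too low for the test had mean differences between -0.44 and 0.26 in MYC/REG3A mice and between -0.69 and 0.30 in MYC mice.

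Pericentrin (Pcnt), the protein that human TRIM43 removes, did not pass the test as a transcript. It averaged 1.09 in MYC/REG3A tumours and 1.10 in MYC tumours, against 1.11 in MYC/REG3A non-tumour liver and 1.07 in MYC non-tumour liver, and differed by -0.05 (SE 0.115, adjusted p = 0.805) in MYC/REG3A mice and by -0.01 (SE 0.115, adjusted p = 0.976) in MYC mice. Of 24 tested centrosome genes 5 rose and 0 fell in MYC/REG3A mice, and 6 rose and 2 fell in MYC mice, with a median of 0.02 in MYC/REG3A mice and 0.08 in MYC mice. The share called was 20.8% in MYC/REG3A mice and 33.3% in MYC mice, beside 12.5% of all tested genes in MYC/REG3A mice and 33.2% in MYC mice, so that in MYC mice the centrosome list did not stand out from the background. Plk4, the kinase that starts centriole duplication, rose by 0.73 (adjusted p = 0.0145) in MYC/REG3A mice and by 0.99 (adjusted p = 0.0013) in MYC mice. Its partner Stil rose by 0.73 (adjusted p = 0.013) in MYC/REG3A mice and by 0.87 (adjusted p = 0.00193) in MYC mice. Cep192, Sass6 and Tubgcp2 rose in both genotypes too, by 0.70, 0.83 and 0.49 in MYC/REG3A mice, against 0.76, 0.71 and 0.72 in MYC mice, and Cep250 and Cntln fell by 0.38 and 0.36 in MYC mice. Without MYC/REG3A mouse 1 the calls of these 5 genes in MYC/REG3A mice were lost, at adjusted p between 0.0659 and 0.147. Without mouse 3 all but that of Stil were lost, and without mouse 4 those of Cep192, Sass6 and Tubgcp2; that of Cep192 was also lost without mouse 2. In MYC mice the calls of Cep250 and Sass6 were each lost without 3 of the 4 mice and that of Cntln without any one.

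Of 14 tested genes of the nuclear lamina and its anchors, 2 rose and 0 fell in MYC/REG3A mice, and 4 rose and 3 fell in MYC mice, with a median of -0.04 in MYC/REG3A mice and 0.08 in MYC mice. In MYC/REG3A mice 14.3% of the list was called, near the background of 12.5%, and in MYC mice 7 of the 14 genes, beside 33.2% of all tested genes. Lamin A/C (Lmna) differed by 0.57 (SE 0.195, adjusted p = 0.081) in MYC/REG3A mice and rose by 0.93 (SE 0.195, adjusted p = 0.00638) in MYC mice. Lamin B1 (Lmnb1) differed by 0.47 (SE 0.152, adjusted p = 0.0715) in MYC/REG3A mice and rose by 0.70 (SE 0.152, adjusted p = 0.00723) in MYC mice. Banf1, which bridges DNA and the lamina, rose by 1.01 (adjusted p = 0.00561) in MYC/REG3A mice and by 1.19 (adjusted p = 0.000814) in MYC mice, and Syne1, a nuclear envelope linker, rose by 0.55 (adjusted p = 0.0313) in MYC/REG3A mice and by 1.12 (adjusted p = 0.000885) in MYC mice. Lbr, Emd and Icmt, the lamin B receptor, emerin and an enzyme that modifies lamins, fell in MYC mice by 0.63, 0.53 and 0.37. Syne1 lost its call in MYC/REG3A mice without mouse 1, 3 or 4, and Icmt in MYC mice without mouse 1 or 4, at adjusted p between 0.0836 and 0.141. Whether the tumour changes differ between genotypes was tested for each gene, and none of the centrosome, lamina or Trim list was called. This comparison called 1 of all 13555 tested genes, so the lack of calls says little of the lists. An unadjusted limma p below 0.05 was found for 1 of 24 centrosome, 1 of 14 lamina and 2 of 39 Trim genes, beside 756 of all 13555.

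Germline genes, another group with little expression in adult liver, were compared for the same reason. Of 59 in the list 54 had a row and 5 were tested; in MYC/REG3A mice 0 rose and 0 fell, and in MYC mice 1 rose and 0 fell, near the 17.4% of all tested genes that rose there. The 1 gene called, the meiotic cohesin subunit Rec8, differed by -0.13, 1.32, 0.37 and -0.27 in MYC/REG3A mice, against 3.89, -0.36, 2.45 and 1.27 in MYC mice. The spread between MYC mice was wide, and mouse 2 went the other way. Its rise in MYC mice was 1.77 (SE 0.544, adjusted p = 0.0322), and the call was lost without MYC mouse 1, 3 or 4, at adjusted p between 0.0643 and 0.126, and under 2 other settings. Tex12, named after its values were seen, was tested and not called in either genotype. It differed by 0.15 (SE 0.652, adjusted p = 0.905) in MYC/REG3A mice. In MYC mice Tex12 differed by 1.65 (SE 0.652, adjusted p = 0.0773), higher in 3 of 4.

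Ddx4, a germ cell RNA helicase, was too low for the test. It differed by 0.69, 0.16, 0.34 and 0.12 in MYC/REG3A mice, against 1.54, 0.39, 1.24 and 1.58 in MYC mice. Its mean level was -1.36 in MYC/REG3A tumours and -0.57 in MYC tumours, against -1.69 in MYC/REG3A non-tumour liver and -1.76 in MYC non-tumour liver. It was singled out after its values were seen, as the untested germline gene with the highest mean difference in MYC mice, 1.19; the other 48 untested germline genes lay below 1 in both genotypes. Among them Hormad2, a meiotic chromosome axis gene, differed by 2.07, 0.044, 0.62 and 0.024 in MYC/REG3A mice, against 0.83, 1.47, 0.22 and 0.67 in MYC mice. It was higher in 4 of 4 tumours of each genotype, with means of 0.69 in MYC/REG3A mice and 0.80 in MYC mice, and the genotypes overlapped.

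**Figure D5:**
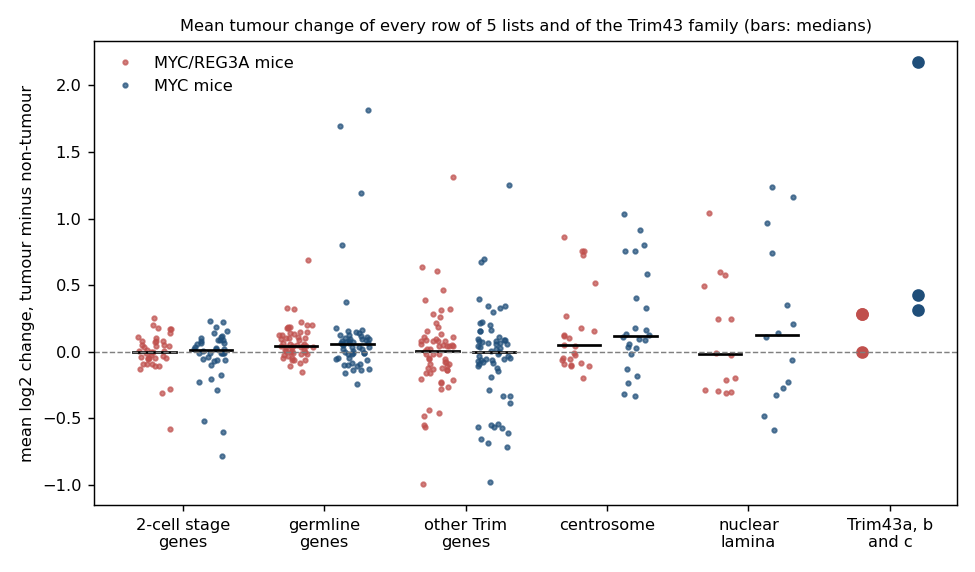
Mean tumour minus non-tumour difference (y axis, log2, over 4 mice) of every row of 5 gene lists, tested or not, and of the 3 Trim43 genes (x axis), with bars for list medians. The 40 rows of 2-cell stage genes reach 0.25 in MYC/REG3A mice and 0.23 in MYC mice, while Trim43c in MYC mice lies at 2.17, above the highest row of the other lists, Rec8 at 1.81.

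The tested genes most like Trim43c were named by Pearson's r of the tumour differences over 8 mice, as a description with no p, since 13555 genes were searched and the 2 genotypes set the pattern. They were Chchd6 (r = 0.969), Snapc5 (0.967), Rab27a (0.962), Lpcat4 (0.953) and Pus1 (0.934). Lpcat4, an acyltransferase of phospholipid synthesis, came nearest in size. It differed by 1.26, 0.27, 0.71 and 0.18 in MYC/REG3A mice, against 2.23, 2.67, 2.68 and 2.29 in MYC mice, with the same order of MYC/REG3A mice 1 and 3 above 2 and 4 as in Trim43c. Chchd6, a mitochondrial protein, differed by 0.51, 0.22, 0.38 and 0.29 in MYC/REG3A mice, against 0.76, 0.74, 0.67 and 0.82 in MYC mice. Rab27a, a GTPase of secretory vesicles, differed by 0.50, 0.087, 0.0022 and 0.073 in MYC/REG3A mice, against 0.68, 1.07, 0.72 and 1.20 in MYC mice. Snapc5 and Rab27a lie on chromosome 9 as Trim43c does, and Chchd6, Lpcat4 and Pus1 on chromosomes 6, 2 and 5.

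The genes most like the other members were named in the same way. Arhgef10l (r = 0.962), Ttll13 (0.958), Ubtf (0.957), Eef1akmt3 (0.935) and Bola2 (0.925) had the highest r with Trim43a over the 8 mice. Dvl1 (0.970), Slc39a6 (0.943), Csrp1 (0.933), Grb10 (0.927) and Fbp2 (0.926) followed Trim43b. None of these 3 sets of 5 genes shared a gene with another.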

How the data were processed

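RNA of 16 liver samples was hybridised to a 1-colour Affymetrix mouse array. The deposited table holds log2 values, which the authors obtained by RMA; the submitters' processing notes name Affymetrix Expression Console 1.4.1. Its settings, the array's genome build and detection calls are not given in the sources used here, and base 2 was inferred from the value range. RMA equalises the arrays, so differences are relative to other genes. The number of arrays limits the precision.

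Gene names came from the platform annotation (1814 rows with several symbols and 16010 with none were left unnamed), and the row of highest mean stood for each of 1082 genes with more than 1 row. Tests were run in R 4.3.3 with the functions lmFit and eBayes of limma 3.58.1 over all 16 arrays. Mouse was a block in the tumour comparisons, because each animal gave both tissues. Deviations of a mouse's arrays from their group means correlated at 0.0963 to 0.325. Within its genotype, the non-tumour array correlated best with the tumour of its own mouse in 7 of 8 mice. The exception was MYC/REG3A mouse 3, at 0.0963. Genotype comparisons used the group means. The tests were checked on simulated data with known changes. Promoter windows were aligned with Biopython 1.88.

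Members, gene lists and the naming rule were chosen with earlier results of these data known. The rule took, per list and comparison, the 5 called genes that rose most and the 5 that fell most, a fixed set of always named genes, the 10 flanking genes and the 5 genes most like each member. No 2 arrays held identical values (0 pairs).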

Additional observations from a re-analysis of the deposited data

Results flagged for a closer look

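Levels and tumour differences of the members and of the genes inside the cluster, 42 groups of 4 values, were checked for 1 value far from the other 3. Chance gives about 1 in 20 such groups, and the values flagged were about as many as that. The level of Trim43b in MYC tumours was -0.51 in mouse 2, against -1.18 to -1.10 in the other 3. The tumour difference of Trim43b in MYC/REG3A mice was 0.44 in mouse 1, against 0.22 to 0.24 in the other 3. The same mice did not stand apart by this measure for Trim43c or Trim43a.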

How the results depend on the processing

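The tumour differences of the members kept their size within 1 SD under the deposited values and centring on the array mean. In groups of this size, medians over mice and the loss of mice cannot move a mean by more than 1 SD. These alternatives are therefore no check by that measure, and their values are given as a description. Leaving out 1 mouse gave 0.16 to 0.35 for Trim43c, -0.05 to 0.02 for Trim43a and 0.23 to 0.30 for Trim43b in MYC/REG3A mice, and 2.05 to 2.27 for Trim43c, 0.38 to 0.48 for Trim43a and 0.12 to 0.41 for Trim43b in MYC mice. The fit without the replicate block called 1613 genes in MYC/REG3A mice and 4419 in MYC mice, against 1690 and 4505; it gave 0 calls in the difference of tumour changes, against 1, and 1 Trim gene in MYC/REG3A mice, against 2. It moved no other count of calls by over 1.5 times. Without a filter on low values the difference of tumour changes gave 0 calls, and with every row of a gene the genotype difference in tumours gave 11, against 3.

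Leaving out 1 mouse gave 273 to 1630 tumour calls in MYC/REG3A mice (281 without mouse 1, 273 without mouse 3, 944 without mouse 4) and 2975 to 3951 in MYC mice, 0 to 2 in the difference of tumour changes, 3 to 114 in the genotype difference in tumours (114 without MYC/REG3A mouse 1, 21 without MYC mouse 2, 13 without MYC mouse 3) and 0 to 22 in non-tumour liver (22 without MYC mouse 2). In the lists, in MYC/REG3A and then MYC mice, it gave 0 to 0 and 2 to 3 calls for 2-cell genes, 1 to 4 and 10 to 12 for their repressors, 1 to 4 and 4 to 10 for Trim genes, 0 to 4 and 5 to 7 for centrosome genes, 1 to 4 and 6 to 8 for lamina genes, 0 to 0 and 0 to 2 for germline genes and 0 to 1 and 1 to 3 for flanking genes. Without MYC/REG3A mice 2 and 4, an alternative chosen after seeing the data, the difference of tumour changes and the genotype difference in tumours gave 0 calls, and the lists in MYC/REG3A mice gave 0 2-cell genes, 2 repressors, 1 Trim gene and 1 centrosome gene. The 1 call among 2-cell genes in MYC/REG3A mice became 2 with mice as a random replicate block and 0 without the filter or with arrays centred on their median. The germline call in MYC mice became 0 with a trended, robust fit. Of 104 tumour differences of single named genes, 68 were called; 30 of these lost their call under at least 1 alternative, 7 of the other 36 gained one and 0 changed direction. The cause of these changes was not tested, and the fits that left mice out also had fewer arrays.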
